A study of Homo sapiens with 2 samples.

Results

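The ZNF genes of chromosome 19 encode zinc finger proteins, the most numerous family of human transcription factors. Membership was set by annotation and not by any measured value, though earlier results of these data were known when the set was chosen. A member is a protein-coding gene with a named transcript cluster on the array, a symbol made of ZNF and a digit, and a place on chromosome 19 in the RefSeq gene table. Of 250 such genes in RefSeq, 225 had a cluster (231 clusters), out of 11916 protein-coding genes with a cluster in all. ZNF genes of the other chromosomes (242 with a cluster) served as the background, beside the 709 other protein-coding genes of chromosome 19.

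RNA came from MDA-MB-231, an established human breast cancer cell line. One group received an antagomir, a synthetic strand complementary to a microRNA that holds it inactive, here directed at miR-544. The other received compound 1, which the study sets beside it. Both were treated 24 hours before a 5-day period of hypoxia with oxygen below 1%, and each is represented by 1 array of RNA that the design text describes as pooled from 3 samples. There was no array of untreated or normoxic cells here, so both groups share the hypoxia and each value is relative to the other treatment. The labels do not say which microRNA form was blocked. RefSeq (GRCh38.p14) lists these mature forms, printed to show what the antagomir's name refers to, 5′ to 3′ with the seed in capitals.
hsa-miR-544a: aUUCUGCAuuuuuagcaaguuc
hsa-miR-544b: aCCUGAGGuugugcauuucuaa

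Most zinc finger genes of chromosome 19 are thought to have arisen by repeated tandem duplication, and they lie side by side in long runs. Many encode a KRAB domain, which recruits the corepressor TRIM28 and through it histone methylation and heterochromatin proteins, and a row of fingers that reads DNA. Many of these proteins bind transposable elements, and a large part of the family has no described target. Neighbouring genes can be close copies, so a cluster of probes may also read a neighbour's transcript, and whether it did was not tested.

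Promoter sequence is shown first, since many members share stretches of it. The stretches below were chosen because the same 12 letters, CTGTCACTCAGG or its reverse complement, occurred in more promoters of the chromosome 19 ZNF genes than any other 12 letters did. They were found in the 250 bases before the start in 23 of 219 genes with a RefSeq promoter entry (10.5%), in 5 of 218 ZNF genes of other chromosomes, and in 1 of 15406 other protein-coding genes (IER5L). In all promoters of protein-coding genes the share was 0.183%. Of the 23 genes, 18 lie in the same run, from ZNF101 to ZNF254. Each line gives the 180 bases that end at the base before the start, in GRCh38.p14, with the shared letters in capitals.
ZNF681: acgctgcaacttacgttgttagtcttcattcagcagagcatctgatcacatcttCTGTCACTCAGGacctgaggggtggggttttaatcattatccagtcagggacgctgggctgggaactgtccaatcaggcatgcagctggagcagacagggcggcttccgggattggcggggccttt
ZNF626: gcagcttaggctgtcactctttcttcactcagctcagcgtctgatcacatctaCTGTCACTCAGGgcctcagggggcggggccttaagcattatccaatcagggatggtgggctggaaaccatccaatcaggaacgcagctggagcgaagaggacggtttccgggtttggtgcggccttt
ZNF844: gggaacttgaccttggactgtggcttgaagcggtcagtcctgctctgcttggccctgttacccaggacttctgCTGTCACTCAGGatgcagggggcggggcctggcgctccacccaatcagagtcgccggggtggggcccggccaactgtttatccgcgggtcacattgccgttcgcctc
ZNF675: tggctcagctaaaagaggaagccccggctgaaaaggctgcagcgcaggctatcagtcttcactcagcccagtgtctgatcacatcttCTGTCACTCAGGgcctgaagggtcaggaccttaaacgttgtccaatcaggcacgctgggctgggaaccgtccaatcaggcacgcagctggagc
ZNF681 (chr19:23758892-23759071), ZNF626 (chr19:20661572-20661751) and ZNF675 (chr19:23687213-23687392) are on the minus strand, and ZNF844 (chr19:12064551-12064730) is on the plus strand. These are the bearers of the letters with the lowest and the highest differences between the arrays, so their values are a description only. ZNF681 reached the entry level defined below on the antagomir array only (5.65 and 5.22) and ZNF675 on the compound 1 array only. The stretches of this pair share an unbroken run of 26 bases.

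Values are the deposited signals per transcript cluster, on a scale taken as log2. A gene was counted as measured when the higher of its values on the arrays reached a log2 level of 5.60, the median over all clusters, and 179 of the 225 genes did so (79.6%). The shares were 83.1% for the other ZNF genes (201 of 242) and 80.4% for all protein-coding genes (9584 of 11916). Probes differ in brightness, so a level is compared between the arrays for the same gene and not between genes. Each treatment has a single array, so no replicate error, test or p-value can be given, and the number of arrays limits the precision. In such bulk RNA, fewer cells with a transcript and less of it per cell cannot be told apart. Of the markers looked up for the cell line, VIM (10.61 with the antagomir and 10.49 with compound 1), CD44 (9.08 and 9.04), ANXA1 (12.58 and 12.56) and AXL (12.78 and 12.77) were measured. ESR1 (5.31 and 5.21), PGR (4.77 and 4.77) and the endothelial marker PECAM1 (5.32 and 5.57) were under the entry level, while the epithelial gene EPCAM was above it at 6.91 and 7.05.

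Levels of the chromosome 19 ZNF genes were close on both arrays. With the antagomir the measured members ranged from 4.92 to 10.68 around a median of 6.88, and with compound 1 from 5.01 to 10.45 around 6.85. Of these genes 98.3% lay within 1.5-fold of equality, beside 97.5% of the other ZNF genes and 99.5% of all protein-coding genes. Across genes the levels correlated with r = 0.978, a description over 179 genes that share both arrays.

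**Figure D1:**
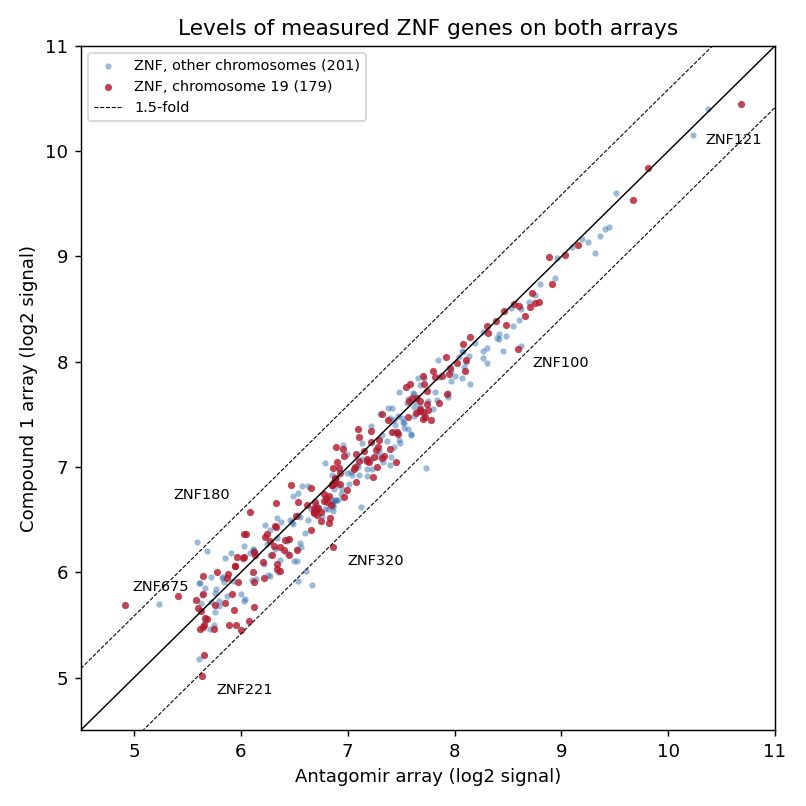
Log2 signal of each measured ZNF gene on the antagomir array (x axis) and the compound 1 array (y axis). Red points are the 179 genes of chromosome 19 and blue points the 201 of other chromosomes; the solid line marks equality and the dashed lines a 1.5-fold difference, which ZNF675 passes upwards and ZNF221 and ZNF320 pass downwards.

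As a group the chromosome 19 ZNF genes were slightly lower on the compound 1 array. The difference, always compound 1 minus antagomir on the log2 scale, had a median of -0.074 over the 179 genes, with its quartiles at -0.19 and 0.061. Lower values were held by 115 genes (64.2%), higher values by 63, and 1 gene had identical values. The share lower among all measured protein-coding genes was 58.9%, with a median difference of -0.041, so the members' count was close to this background. Over all levels of signal together, the other ZNF genes stood lower still, at a median of -0.11 with 139 of 201 lower (69.2%). The medians of the ZNF groups differed by 0.035, a difference that was not tested. The robust SD across the members, estimated from the median absolute deviation, was 0.19.

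The members differed more from their neighbours of other kinds on the same chromosome. The 624 measured chromosome 19 genes that are not ZNF genes had a median difference of 0.019, and 283 of them (45.4%) were lower on the compound 1 array. This was the highest median among non-ZNF genes of 23 chromosomes, and it stayed the highest under centring, cyclic loess and quantile normalization. The ZNF median minus that of the rest of the chromosome was -0.093. It was -0.10 with quantile-normalized values, -0.11 with cyclic loess, -0.074 relative to promoter GC bins and -0.051 under the stricter filter that sets entry at the 75th percentile. The sign of the non-ZNF median itself depended on scaling and filter, since centring turned it to -0.011 and the stricter filter to -0.017. After quantile normalization the median of all protein-coding genes was 0.0017, with 49.5% lower. That of the chromosome 19 ZNF genes was -0.043, with 102 of 179 lower (57.0%). After cyclic loess 107 were lower (59.8%), against 51.4% of all protein-coding genes.

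**Figure D2:**
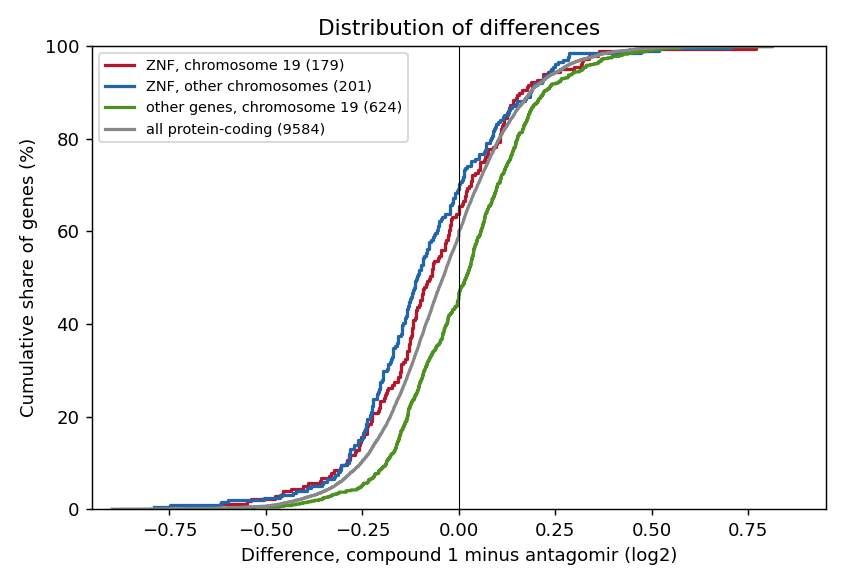
Cumulative share of measured genes (y axis, percent) at or below each difference between the arrays (x axis, log2, compound 1 minus antagomir), with the number of genes in brackets. The curves of both ZNF groups lie left of the curve for all protein-coding genes around zero, and the curve for the other genes of chromosome 19 lies right of it; the shares lower are 64.2%, 69.2%, 58.9% and 45.4%.

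The place of the members relative to all genes depended on the level of signal. Members were split by level into 3 equal parts. In the lowest part (5.30 to 6.52) their median was -0.088, while all protein-coding genes in this range had 0.055 and the non-ZNF genes of chromosome 19 had 0.10. In the middle part (6.52 to 7.27) the medians were -0.094, -0.023 and 0.053 in the same order. In the highest part (7.27 to 10.57) the members were at -0.059 and all protein-coding genes at -0.074, so there the members were not the lower group. The non-ZNF genes of chromosome 19 were at -0.016 in this part. The other ZNF genes had medians of -0.054, -0.14 and -0.11 in the lowest, middle and highest parts. They were thus lower than the members in the middle and highest parts and not in the lowest. The spread among members was widest in the lowest part, with a robust SD of 0.29 against 0.20 for all protein-coding genes of that range, and it was 0.15 in the highest part against 0.14. Set against protein-coding genes in the same of 20 level bins, the members' median was -0.045 and that of the other ZNF genes -0.068.

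**Figure D3:**
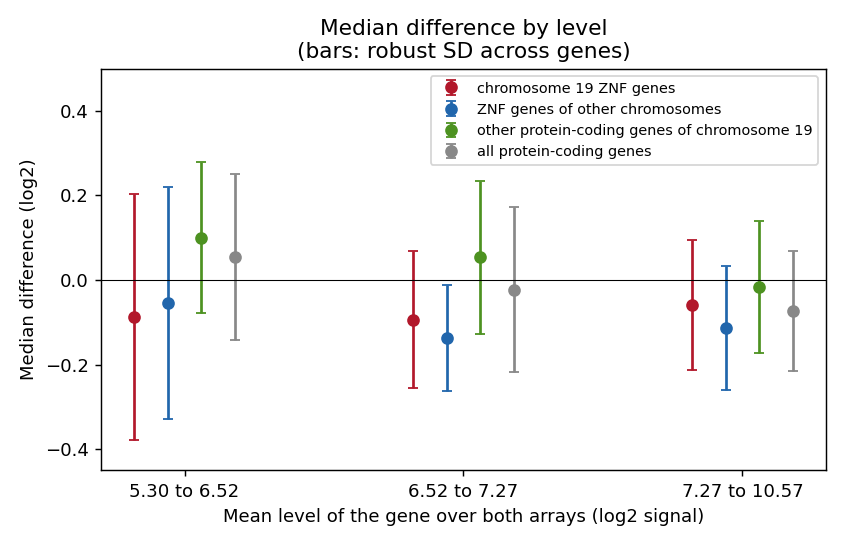
Median difference between the arrays (y axis, log2) in 3 ranges of mean level (x axis, log2 signal) that split the measured chromosome 19 ZNF genes into equal parts. Points are medians of the gene groups and bars the robust SD across genes, not an error of the median; chromosome 19 ZNF genes sit below all protein-coding genes in the first and second ranges (-0.088 against 0.055 and -0.094 against -0.023) and not in the third.

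Few single members passed 1.5-fold. There was 1 higher member (0.559%, background 0.167%), and 2 were lower (1.12%, background 0.365%). Past a smaller difference of 0.32 on the log2 scale 5 members were higher (2.79%, background 2.88%) and 15 lower (8.38%, background 5.02%). Of the 15, ZNF221, ZNF557, ZNF230, ZNF613, ZNF681 and ZNF132 reached the entry level on the antagomir array only. Of the 5, ZNF675 and ZNF610 reached it on the compound 1 array only. The rest of the 15 (ZNF320, ZNF100, ZNF563, ZNF766, ZNF420, ZNF626, ZNF83, ZNF85 and ZNF615) reached it on both arrays. Shares past 0.32 were not taken with both arrays required to reach entry. The excess of lower members over 5.02% therefore cannot be read as one of members with signal on both arrays. Past 2-fold none was either higher or lower (background 0 of 9584 each way). The spread was widest at low signal, as given above. Of the measured members, 3 fell short of the entry level with the antagomir and 12 with compound 1. Among all 9584 measured protein-coding genes the order was the other way, with 223 short of it with the antagomir and 135 with compound 1.

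ZNF675, which encodes a zinc finger protein known to bind TRAF6 and dampen its signalling, had a log2 signal of 4.92 with the antagomir and 5.69 with compound 1. The antagomir value lies under the entry level, and the gap of 1.70-fold is the widest in the set. ZNF180 was at 6.08 and 6.57, a difference of 0.49, with both values above the entry level. ZNF765 (6.47 and 6.83) and ZNF610 (5.41 and 5.77) both differed by 0.36, and ZNF570 by 0.34 (6.03 and 6.37). These 5 genes were the members past a difference of 0.32 in the direction of compound 1.

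Close under that threshold, which is 0.3219 before rounding, followed ZNF419 (0.32, from 6.33 to 6.65), ZNF350 (0.32, from 6.05 to 6.37) and ZNF836 (0.32, from 5.65 to 5.96). ZNF350 encodes a KRAB repressor, also called ZBRK1, that works together with BRCA1. ZNF561 (0.30), ZNF98 (0.26), ZNF628 (0.23) and ZNF524 (0.22) complete the 12 highest. All 12 kept their sign under each of the 3 scalings (centring, cyclic loess, quantile normalization). They were picked for large differences, which the scalings shift only a little, so this says little about how firm they are.

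At the other end ZNF221 had 5.64 with the antagomir and 5.01 with compound 1, 1.54-fold lower on the latter array and there below entry. ZNF320 was at 6.86 and 6.24, above the entry level on both and 1.53-fold lower on the compound 1 array. ZNF557 (5.998 and 5.450) and ZNF230 (6.07 and 5.53) differed by -0.55 and -0.54. ZNF230 and ZNF221 lie in the same run of neighbours. With cyclic loess 4 members in place of 2 passed 1.5-fold lower.

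ZNF100 was well above the entry level on both arrays, with 8.59 for the antagomir and 8.12 for compound 1 (-0.48). ZNF563 (-0.46), ZNF613 (-0.46), ZNF681 (-0.43), ZNF766 (-0.40) and ZNF132 (-0.39) followed, of which ZNF766 had clear signal on both arrays (7.45 and 7.05). On the compound 1 array ZNF613, ZNF681 and ZNF132 were under the entry level. ZNF420, which encodes a KRAB protein that restrains p53-dependent apoptosis, was at 6.37 and 6.01 (-0.36). ZNF626, whose promoter is printed above, was at 6.83 and 6.47 (-0.36). All 12 kept their sign under the 3 scalings, which again says little for genes picked for large differences.

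The members with the highest signal differed little. ZNF121 had 10.68 with the antagomir and 10.45 with compound 1, a difference of -0.24. ZNF146, which encodes a protein made almost wholly of zinc fingers with no KRAB domain, was at 9.81 and 9.84. ZNF317 was at 9.67 and 9.54, ZNF358 at 8.91 and 8.74, and ZNF841 at 8.888 and 8.995. ZNF850 (9.16 and 9.11), ZNF791 (9.04 and 9.01) and ZNF266 (8.73 and 8.66) were lower on the compound 1 array in the deposited values, but quantile normalization turned the sign of each, and cyclic loess turned ZNF850 and ZNF791. Of these 8 genes ZNF121 alone differed by more than 0.20.

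Members with a described role in silencing transposable elements were looked up after the differences had been seen. ZNF91, which represses SVA elements, had 6.52 with the antagomir and 6.21 with compound 1 (-0.31). ZNF93, which represses a class of LINE-1 elements, was at 7.22 and 7.23 (0.017). Both lie in the run from ZNF101 to ZNF254.

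The 46 members that were not measured lay between 2.17 and 5.58. Of these 46 members 22 were lower on the compound 1 array, beside 820 of 2332 unmeasured protein-coding genes in all. The members' median difference was 0.060, and that of all unmeasured protein-coding genes 0.069. Differences of the 46 members ran from -0.98 to 0.67. The members just inside the entry level were ZNF443 (5.62 and 5.46), ZNF224 (5.63 and 5.64) and ZNF221, and those just outside it were ZNF30 (5.26 and 5.58), ZNF846 (5.31 and 5.57) and ZNF671 (5.56 and 5.46). ZNF224, a KRAB repressor that partners with WT1, had a difference of 0.011 that turned negative under each scaling.

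Only 5 members had more than 1 cluster. The 3 clusters of ZNF865 did not move together: they differed by -0.20, 0.17 and -0.16, at antagomir levels of 6.99, 6.34 and 6.41. ZNF57 had clusters at -0.11 and -0.13, the lower-signal cluster being under the entry level. ZNF383 had identical values of 6.88 on both arrays in its measured cluster and 0.23 in the other.

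Most runs of neighbours held both higher and lower genes. Taken in the RefSeq order, the ZNF genes fall into 12 runs of at least 5 genes with no more than 2 other protein-coding genes between neighbours. The runs hold 225 of the 250 ZNF genes and 156 of the 179 measured ones. Measured members in the runs had a median difference of -0.084 with 98 lower (62.8%), and the 23 outside had -0.069 with 17 lower (73.9%). Among all measured protein-coding genes 58.9% were lower. Of 11 measured genes inside the runs that are not named ZNF, 6 are zinc finger genes named ZFP, ZSCAN or ZIK, and the other 5 had a median of 0.034 with 2 lower.

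The run from ZNF101 to ZNF254 (37 genes, 19 measured), the one that holds most of the shared promoter letters, had the lowest median of the runs with 10 or more measured members, at -0.15 with 14 lower (73.7%). It also holds both ZNF675 (0.77) and ZNF100 (-0.48). Quantile normalization gave it a median of -0.13 and cyclic loess -0.13, again with 14 lower. The run from ZNF283 to ZNF180 (13 measured) had a median of -0.11 and spanned ZNF221 (-0.63) to ZNF180 (0.49). The run from ZNF577 to ZNF331 (27 measured) was at -0.094, between ZNF320 (-0.62) and ZNF765 (0.36). In this run 15 were lower (55.6%, under the 58.9% of all protein-coding genes).

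The run from ZNF264 to ZNF8, the one with most measured members (31), had a median of -0.067 with 21 lower (67.7%), between ZNF776 (-0.26) and ZNF419 (0.32). After quantile normalization 17 were lower (54.8%, beside 49.5% of all protein-coding genes) and the median was -0.014. The run from ZNF627 to ZNF791 (19 measured) was at -0.065 with 12 lower (63.2%), from ZNF563 (-0.46) to ZNF490 (0.20). The run from ZNF565 to ZNF573 (18 measured) was at -0.023 with 9 lower (50%), from ZNF420 (-0.36) to ZNF570 (0.34). Its median was 0.019 under quantile normalization and 0.0028 under cyclic loess, so its sign turned.

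Of the short runs, the one from ZNF579 to ZNF580 stood apart in direction, with 4 of 6 measured members higher, a median of 0.065 and extremes at ZNF865 (-0.20) and ZNF524 (0.22). Its median stayed positive under each scaling. It also had the highest promoter GC content of the runs, a median of 69.7% against 61.0% for all measured members. The run from ZNF699 to ZNF846 (7 measured) was at -0.070, from ZNF121 (-0.24) to ZNF561 (0.30), and the one from ZNF497 to ZNF446 (7 measured) at -0.021, from ZNF132 (-0.39) to ZNF446 (0.13). The remaining runs had 3 measured members each. Their extremes were ZNF77 (-0.21) and ZNF555 (-0.036), ZNF302 (-0.24) and ZNF792 (0.16), and ZNF470 (-0.30) and ZNF71 (0.051).

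**Figure D4:**
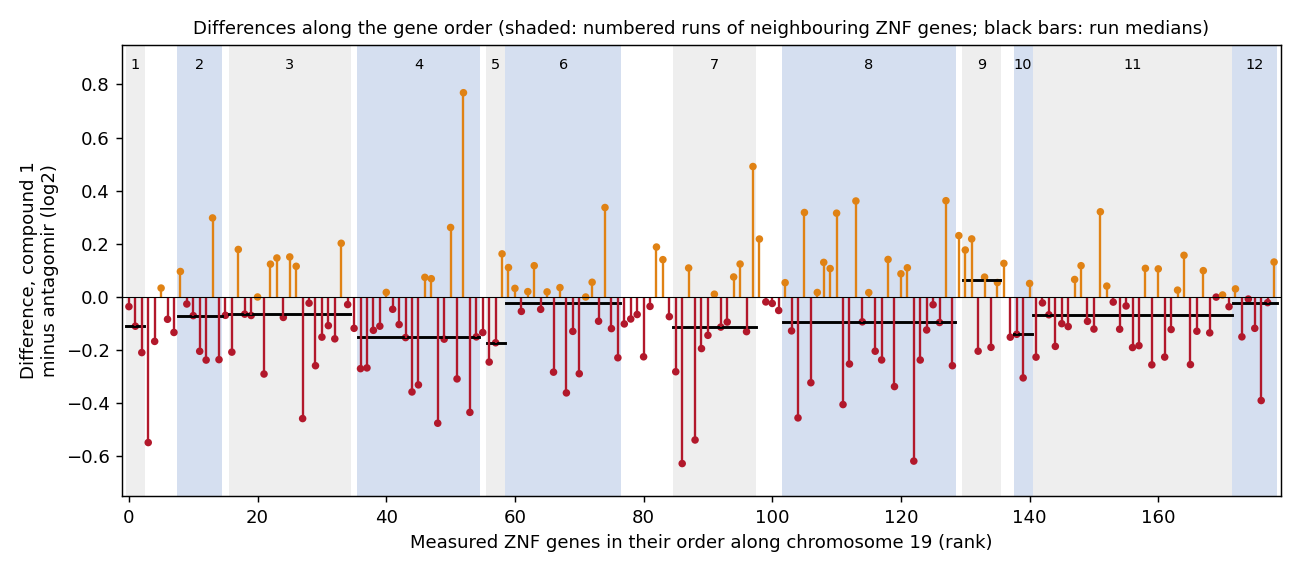
Difference between the arrays (y axis, log2, compound 1 minus antagomir) for the 179 measured ZNF genes in their order along chromosome 19 (x axis, rank). Shaded bands are the 12 numbered runs of neighbouring ZNF genes and black bars their medians. Both higher and lower genes are found in every run except run 1, and the median is positive in run 9 only (ZNF579 to ZNF580, 0.065).

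Adjacent ZNF genes were also compared. Of 109 pairs of neighbours in the runs with both genes measured, 50 had the same sign (45.9%), beside 201 of 364 pairs (55.2%) among the other genes of chromosome 19. The differences of ZNF neighbours correlated with r = -0.28 over the 109 pairs and those of the other neighbours with r = 0.13; all pairs share the same 2 arrays. With no filter on level the ZNF value was -0.028 over 173 pairs, with entry at the 75th percentile -0.036 over 22 pairs. It was -0.24 with quantile normalization, -0.23 with cyclic loess and -0.18 over 87 pairs with both arrays at or above entry. After centring 62 of 109 ZNF pairs (56.9%) and 192 of 364 other pairs (52.7%) had the same sign, so the order of these shares turned. A same-sign share also depends on how many genes of a group are lower. Centring raised that share among the members from 64.2% to 69.8%, and no expected same-sign share was computed.

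Promoter letters of common factors were compared next. The letters CCGGAAG, the core read by ETS factors, were found on either strand of the 300-base window (250 before the start and 50 after) in 100 of 219 chromosome 19 ZNF genes (45.7%). The shares were 33.9% for the other ZNF genes (74 of 218) and 14.2% for all promoters of protein-coding genes (2255 of 15843). The measured members with these letters had a median difference of -0.10 with 49 of 69 lower, and those without had -0.065 with 55 of 93 lower. Over measured protein-coding genes that are not ZNF genes the medians were -0.077 with the letters (1261 genes) and -0.036 without (6278 genes), the same order as in the members. The stretches below show members with the letters at both ends of the range, with CCGGAAG or its reverse complement in capitals, again the 180 bases before the start.
ZNF557: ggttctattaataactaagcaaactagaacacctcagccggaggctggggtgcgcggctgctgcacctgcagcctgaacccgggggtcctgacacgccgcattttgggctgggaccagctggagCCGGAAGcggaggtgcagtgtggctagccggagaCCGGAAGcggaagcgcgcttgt
ZNF230: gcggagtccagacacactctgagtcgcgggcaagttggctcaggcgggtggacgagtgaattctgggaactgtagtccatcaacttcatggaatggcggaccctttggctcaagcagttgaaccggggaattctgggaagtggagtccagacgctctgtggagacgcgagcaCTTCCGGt
ZNF180: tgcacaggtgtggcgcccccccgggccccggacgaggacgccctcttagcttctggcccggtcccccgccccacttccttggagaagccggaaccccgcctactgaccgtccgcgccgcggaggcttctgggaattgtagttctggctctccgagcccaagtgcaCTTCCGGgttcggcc
ZNF557 (chr19:7069523-7069702) and ZNF230 (chr19:44002777-44002956) are on the plus strand and ZNF180 (chr19:44500523-44500702) on the minus strand. They were picked for their place in the range, so their directions say nothing about the letters. ZNF557 and ZNF230 reached the entry level on the antagomir array only. A match of letters is no evidence that a factor binds there.

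The other letters were searched on both strands, and none contains another. GGGCGG (SP and KLF factors) was in 67.6% of member windows and 58.5% of all, AAGATGG (YY1) in 7.76% and 6.40%, ACTACAA (ZNF143) in 5.02% and 3.14%, and GCGCATG (NRF1) in 5.02% and 5.87%. The core site of the TATA-binding protein, spelled TATAAA, was in 4 of 219 member windows (1.83%) and 9.63% of all. The 14 measured members with AAGATGG had a median of 0.0085 with 6 lower, against -0.083 with 98 of 148 lower without it. Over protein-coding genes that are not ZNF genes the medians were -0.084 with AAGATGG and -0.042 without, the opposite order. For the shared 12 letters CTGTCACTCAGG the medians were -0.090 in 14 measured members that hold them (9 lower) and -0.072 in 148 that do not (95 lower). None of these differences by letters was tested.

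Promoter GC content was lower in the members, with a median of 61.0% against 65.3% in the other measured genes of chromosome 19 and 65.0% in all measured protein-coding genes. The measured ZNF genes of other chromosomes lay between, at 63.2%. Within the members promoter GC content hardly went with the difference between the arrays, with r = 0.051 over 162 genes. Relative to protein-coding genes in the same of 10 bins of promoter GC content, the members' median was -0.019 with 87 of 162 lower, the other ZNF genes' -0.069 and that of the non-ZNF genes of chromosome 19 0.055. The part of promoter composition in the small shift of the members was not tested further.

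Transcripts of the corepressors that KRAB zinc finger proteins work through had a small negative median as a list. All 32 of 40 listed corepressor and heterochromatin genes that had a cluster were measured, with a median difference of -0.11, 23 lower and 8 higher, and none past 1.5-fold either way. The share lower of 71.9% stands beside the 58.9% of all protein-coding genes. Of the 32 genes, 29 had a mean level in the highest of the ranges above, with 20 lower and a median of -0.11, and there 68.5% of all protein-coding genes were lower with a median of -0.074, so the list's share was close to that of its own level. Quantile normalization gave the list a median of -0.054 (22 lower) and cyclic loess -0.058 (21 lower). TRIM28, the corepressor that KRAB domains bind, had 11.13 with the antagomir and 11.06 with compound 1 (-0.072). ATF7IP, the partner of the histone methyltransferase SETDB1, was at 8.18 and 8.09 (-0.082), and CBX5, which encodes heterochromatin protein HP1 alpha, at 8.998 and 9.073 (0.076). SETDB1 was not analysed here.

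The lowest on the list were ATRX, a chromatin remodeller that helps deposit histone H3.3 (7.67 and 7.29, -0.38), CBX1, which encodes HP1 beta (-0.22), the histone-binding protein gene RBBP7 (-0.22) and MPHOSPH8, a subunit of the HUSH silencing complex (-0.22). The highest were GATAD2A (0.17), CHD3 (0.14), CBX5 and TRIM33 (0.070), of which GATAD2A and CHD3 encode subunits of the NuRD deacetylase complex. MORC2 had identical values of 9.12 on both arrays.

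Zinc finger genes of chromosome 19 that carry other names also had small differences. Of 11 genes named ZFP, ZSCAN or ZIK, 8 were measured, with a median of -0.043 and 5 lower. The median was 0.0060 with 3 lower after quantile normalization. The lowest measured ones were ZFP30 (6.42 and 6.21, -0.21), ZSCAN1 (6.82 and 6.61, -0.21), ZSCAN22 (-0.086) and ZFP82 (-0.048), and the highest were ZIK1 (5.74 and 5.97, 0.23), ZSCAN5A (0.13), ZFP28 (0.11) and ZSCAN18 (-0.038).

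**Figure D5:**
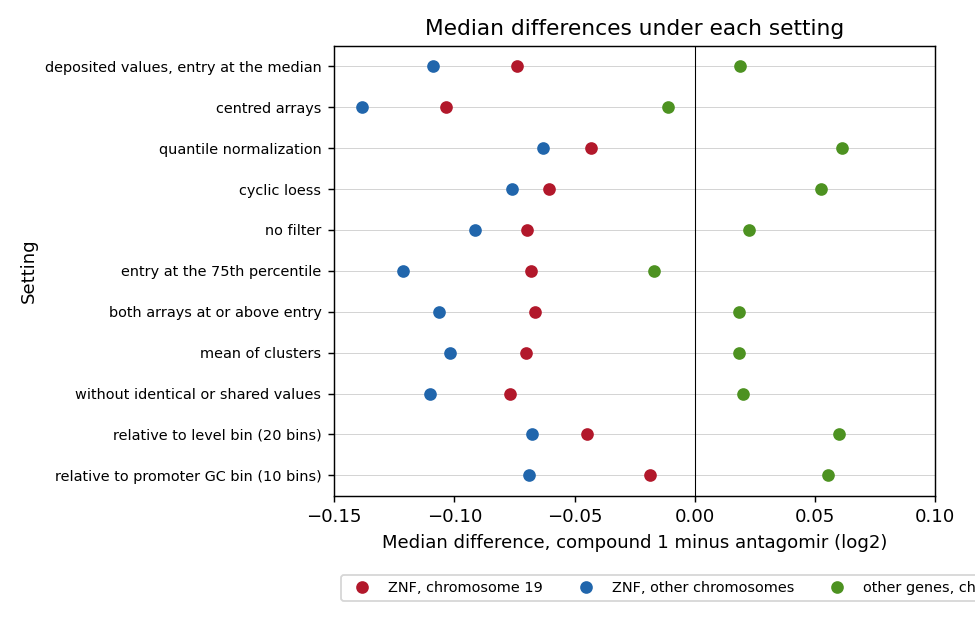
Median difference between the arrays (x axis, log2) of the chromosome 19 ZNF genes (red), the ZNF genes of other chromosomes (blue) and the other genes of chromosome 19 (green) under each setting of scaling, filter and cluster choice (y axis). In every setting plotted the red points are below zero, from -0.10 to -0.019, right of the blue points and left of the green points. In the settings relative to bins, zero is the median of all protein-coding genes in the bin and not equality of the arrays.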

How the data were processed

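The deposited table gives 1 value per transcript cluster (53617) and array. Its range, 0.37 to 14.20, places these deposited values on a log2 scale; the log base, background correction and normalization: not given in the sources used here, and the title names another array type than the probe numbers. The array medians were 5.59 and 5.62. Per the labels' protocols, 5 µg of total RNA went into biotinylated cRNA. The probe table gave 16098 clusters 1 symbol, and RefSeq (GRCh38.p14) gave gene type, chromosome and order.

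Each gene was read from the brightest of its entering clusters, and entry was at the 50th percentile of cluster means. Differences are compound 1 minus antagomir, without further scaling. With 1 array per treatment no test was made; fold thresholds describe these arrays. Alternatives were centring, quantile normalization, cyclic loess, 3 filters, the mean of clusters, and omission of identical values. The summary steps were tested on simulated data.

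Genes named are the 12 highest and 12 lowest differences, those past 1.5-fold, the 8 highest levels, the extremes of each run, those next to the entry level, and the 4 highest and 4 lowest of each further list with TRIM28, SETDB1, CBX5 and ATF7IP. ZNF91, ZNF93, ZNF57 and ZNF383 were added after their values were seen. The members and lists were chosen with earlier results of these data known. The planned comparison by KRAB box and by protein identity was not run, since no protein table was used here. Analyses used Python 3.11.15, numpy 2.4.6, pandas 2.3.3, matplotlib 3.10.9, R 4.3.3 and limma 3.58.1.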

Additional observations from a re-analysis of the deposited data

How the results depend on the processing

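The values relative to level bins and to promoter GC bins, and the alternatives for the non-ZNF genes of chromosome 19, were chosen after seeing the data. A median was taken as moved when it changed by more than its robust standard error across genes. The chromosome 19 ZNF median of -0.074 was -0.10 after centring and -0.043 after quantile normalization, and -0.045 relative to level bins and -0.019 relative to promoter GC bins. It stayed below zero in all 10 alternatives. The values relative to bins are counted from the median of all protein-coding genes in the same bin, and not from equality of the arrays. Over all measured protein-coding genes together that median was -0.041, so the bin values are not directly comparable with -0.074. The median of the other ZNF genes (-0.11) was -0.14 after centring, -0.063 after quantile normalization, -0.076 after cyclic loess, -0.092 with no filter, -0.068 relative to level bins and -0.069 relative to promoter GC bins. The non-ZNF genes of chromosome 19 (0.019) were at -0.011 after centring, 0.061 after quantile normalization, 0.052 after cyclic loess, -0.017 with entry at the 75th percentile, 0.060 relative to level bins and 0.055 relative to promoter GC bins. The gap of -0.093 between them and the ZNF genes was -0.11 after cyclic loess and -0.051 with entry at the 75th percentile. Centring shifts all genes alike, and the values relative to bins start from another zero, as given above. Beyond this, the cause of these moves was not tested.

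Members past 1.5-fold numbered 3 higher and 4 lower with no filter, 0 and 0 with entry at the 75th percentile (where 80 members were measured), 0 higher and 1 lower when both values had to reach the entry level, and 4 lower after cyclic loess. Past a difference of 0.32 they numbered 5 and 15, and at 2-fold 0 and 0. All 317 alternative values of single named members moved by less than 1 robust SD of genes of like level. This yardstick is wide, since ZNF224, ZNF266, ZNF791 and ZNF850 turned sign under a scaling and still count among them. Most genes have 1 cluster, so for them only the scalings could change a value. No paired analysis was possible because only 1 array stands for each treatment. The comparisons by KRAB box and without close protein copies were not run.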

Other observations

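ZNF genes of other chromosomes did not all stand where those of chromosome 19 did. Among the chromosomes with 10 or more measured ZNF genes, the ZNF medians were lowest on chromosome 10 (-0.22, with 11 of 14 lower) and chromosome 3 (-0.20, with 9 of 10 lower), where the other genes had -0.044 and -0.061. On chromosome 16 the 29 measured ZNF genes had a median of -0.053 with 18 lower, and its other genes -0.011. On chromosome 7 the ZNF genes (-0.033, with 14 of 24 lower) were not below the other genes of the chromosome (-0.047). These are values of small groups on 1 pair of arrays and were not tested.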
